A study of Oryza sativa and Arabidopsis thaliana with 16 samples.

Results

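Gene expression in shoots of rice (Oryza sativa) was compared between plants given nitrogen and plants given KCl for 2 h. The comparison used the 4 rice shoot arrays, 2 per treatment, of the 16 arrays in the series, and was chosen by the shoot and treatment labels alone. The other arrays hold rice roots and the same treatments in Arabidopsis, and of these the rice root arrays entered the estimate of the spread. All plants were wild type and 13 days old. Rice germinated for 3 days in the dark, and embryos were then cut from the seed and grown in hydroponics at 27 °C in a light of 180 µE per second and square metre. The medium, renewed every 3 days, held ammonium succinate at 0.5 mM, with sucrose at 3 mM, for both groups, so the control shoots were not grown without nitrogen. At the start of the light period, the nitrogen group received KNO3 and NH4NO3 (20 mM of each) and the control group 20 mM KCl. Nitrate, ammonium, chloride and the total salt therefore differ together between the groups and cannot be told apart. The labels say shoot, while the protocols speak of whole seedlings and whole plants, so the tissue was checked on the arrays. The labels call the arrays of a group biological replicates and say nothing of how many plants were pooled.

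Plants take up nitrate through transporters and reduce it to nitrite with nitrate reductase and to ammonium with nitrite reductase. Electrons for nitrite reduction come from ferredoxin, which in tissues without photosynthesis is reduced with NADPH from the oxidative pentose phosphate pathway. Glutamine synthetase and glutamate synthase then build ammonium into amino acids. Nitrate is also a signal that quickly switches on the genes of its own assimilation. Non-symbiotic hemoglobins, which turn nitric oxide into nitrate, are known to be among the genes that respond to it.

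The shoot label held on the arrays. The log2 of the summed unlogged signal, a measure led by the brightest genes, was taken over 10 photosynthesis genes. It lay between 16.83 and 16.93 in the 4 shoot arrays and between 12.92 and 14.28 in the rice root arrays. The same measure over 6 root markers lay between 9.44 and 9.90 in shoots and between 13.79 and 14.11 in roots. Of the 6, 2 were above the 75th percentile of each shoot KCl array and 1 above that of each shoot nitrogen array. CASP1 differed little between the organs (-0.67, shoot minus root). Seed storage and oil body genes, a check for leftover seed tissue, were at 9.11 to 9.34 by this measure in shoots. Of the 9, 6 were below the 25th percentile of every array. The glutelin gene GLUA-2 was above the 75th percentile of every shoot array, at 8.39 to 8.79. Across all probe sets the correlation between the 2 KCl arrays was 0.9932 and between the 2 nitrogen arrays 0.9941. Between a nitrogen and a KCl array it ranged from 0.9897 to 0.9941. By this measure treated and control shoots were about as close as replicates, apart from the lowest pair, KCl replicate 1 with nitrogen replicate 2. The SD of the difference over all probe sets was 0.305 for that pair and 0.227 for KCl replicate 2 with nitrogen replicate 2. It was 0.248 between the KCl arrays and 0.231 between the nitrogen arrays.

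The changes called after nitrogen were few and were all rises. With 2 arrays per group, smaller or more variable changes can go uncalled. Of 57258 probe sets, 25 were called (0.0437%) at an adjusted p under 0.05 with limma, and all 25 were higher after nitrogen. The 25 belong to 23 genes and 1 probe set that the annotation pairs with no gene, and 8 of the genes have a name: NSHB1, NSHB2, NIA1, FNR, 6PGDH2, MDAR5, CML16 and LAC19. Their log2 changes ran from 1.02 to 4.22, with a median of 1.72. In each of the 25 both nitrogen arrays were above both KCl arrays, by a gap of 0.91 to 4.03. The calls were made on these same arrays, which favours such a gap, so it adds no support to any of them. Over all probe sets, 18.7% had both nitrogen arrays above both KCl arrays and 15.7% had both below.

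In this limma fit of the 8 rice arrays no probe set was called lower, and 1612 were lower at an unadjusted p under 0.05 (2.82%), against 1941 higher (3.39%), 3553 in all (6.21%). The median change over all probe sets was 0.0051, and 90% of them lay between -0.275 and 0.274. Among large changes, positive and negative values were about equal in number, with 97 probe sets at 1 or more on the log2 scale and 100 at -1 or less. They differed in how well replicates agreed, which is described with the negative values further on. The smallest adjusted p of a negative change was 0.0844.

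**Figure D1:**
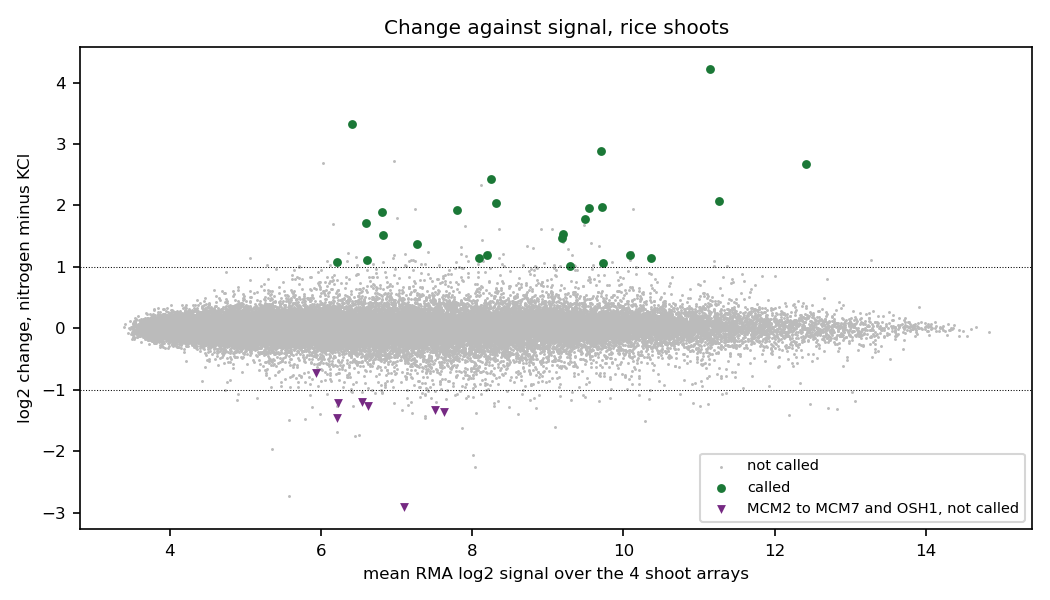
The log2 change in rice shoots (nitrogen minus KCl, vertical axis) is plotted against the mean RMA log2 signal of the 4 shoot arrays (horizontal axis) for every probe set. Green points are the 25 called probe sets, purple triangles the probe sets of MCM2 to MCM7 and OSH1, and dotted lines mark changes of 1 and -1. All green points lie above the upper line, and the triangles lie low in the plot with none called.

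Nitrate reductase was the called member of the nitrate transport and reduction genes. The gene lists were matched by name, which 2460 of 17905 genes have, so a list can miss genes of its kind. Measured members are therefore named genes, and the 15 called genes with a number only are in no list. NIA1 (LOC4345795), which reduces nitrate to nitrite, had log2 signals of 9.98 and 10.47 in the KCl arrays and 12.35 and 12.24 in the nitrogen arrays. Both nitrogen arrays were well above both controls. The rise was 2.07 ± 0.23 (log2 change ± SE, 2 arrays per group here and throughout; adjusted p = 0.0427), or 4.19-fold. A dim second probe set of the gene stayed at 5.35 to 5.41 in all 4 arrays. The high-affinity nitrate transporter gene NRT2.2 was at 0.28 ± 0.13, NRT2.3, which also serves as a root marker, at 0.21 ± 0.23, and NAR2.2, a partner protein of such transporters, at 0.18 ± 0.13. Thus 1 of 4 measured genes passed, against 0.123% of all genes with 1 probe set per gene. The called counts of the lists below have to be read against this share too.

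The call of NIA1 held in 2 of the 8 fits that left out 1 array, those without either root nitrogen array. Its change stayed between 1.82 and 2.31 when any shoot array was left out, but the adjusted p was 0.191 without KCl replicate 1, 0.0617 without KCl replicate 2, 0.221 without nitrogen replicate 1 and 0.209 without nitrogen replicate 2. It was 0.102 without either root KCl array and 0.0889 with the shoot arrays alone.

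Of 6 measured genes in the list of ferredoxin reductases and pentose phosphate enzymes, FNR and 6PGDH2 rose. FNR (LOC4334338), a ferredoxin-NADP reductase, had signals of 8.79 and 8.34 after KCl and 10.65 and 10.39 after nitrogen. It rose by 1.95 ± 0.17 (adjusted p = 0.0136), or 3.87-fold. 6PGDH2 (LOC4350528), a 6-phosphogluconate dehydrogenase that makes NADPH in the pentose phosphate pathway, had signals of 8.80 and 8.41 after KCl and 10.57 and 10.21 after nitrogen. Its rise was 1.78 ± 0.16 (adjusted p = 0.0155), or 3.44-fold. For both genes the arrays of each group lay within 0.46 of each other and the groups did not overlap.

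The other 4 measured genes of this list were not called. G6PGH1, the second 6-phosphogluconate dehydrogenase, was at -0.01 ± 0.18. A second gene with the symbol FNR (LOC4342399) was at 0.34 ± 0.12 (adjusted p = 0.690), the leaf-type reductase LFNR1 at -0.03 ± 0.44 and the pentose phosphate epimerase RPE at -0.01 ± 0.19. The median over the 6 was 0.16 against 0.0191 over all genes. A dim second probe set of 6PGDH2 was at 0.34 ± 0.26. The FNR call was lost without nitrogen replicate 1 (adjusted p = 0.110) and without nitrogen replicate 2 (adjusted p = 0.0537). That of 6PGDH2 held only without KCl replicate 1 or nitrogen replicate 2 among the 8 fits that left out 1 array, and its largest adjusted p among them was 0.110, without nitrogen replicate 1.

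Both hemoglobin genes found by name rose. NSHB2 (LOC4332123) had signals of 7.13 and 6.93 after KCl and 9.34 and 9.58 after nitrogen. It rose by 2.43 ± 0.14 (adjusted p = 0.00281), or 5.39-fold. NSHB1 (LOC4332166) was at 6.84 and 6.83 after KCl and 8.70 and 8.82 after nitrogen, a rise of 1.92 ± 0.16 (adjusted p = 0.0110). On this probe set of NSHB1 replicates differed by at most 0.11, and the groups did not overlap. Its other probe sets were at 1.52 ± 0.16 (adjusted p = 0.0252) and 1.14 ± 0.16 (adjusted p = 0.118). Their nitrogen replicates were at 7.50 and 7.67, and at 7.34 and 7.70. The hemoglobin genes lie 51 gene positions apart on the same chromosome in the RefSeq gene order, and near-identical family members can share probes, which the files do not resolve. NSHB2 was called in each of the 8 fits that left out 1 rice array. NSHB1 was not called when any 1 shoot array was left out (adjusted p = 0.103 without KCl replicate 1, 0.0590 without KCl replicate 2, 0.103 without nitrogen replicate 1 and 0.0916 without nitrogen replicate 2).

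The other 3 named genes also rose, each by little more than 1 on the log2 scale. MDAR5 (LOC4344670), a monodehydroascorbate reductase that regenerates ascorbate, had signals of 9.84 and 9.75 after KCl and 11.00 and 10.86 after nitrogen, a rise of 1.14 ± 0.11 (adjusted p = 0.0222). CML16 (LOC4325693), a calmodulin-like calcium sensor, had 9.55 and 9.43 after KCl and 10.69 and 10.68 after nitrogen, a rise of 1.20 ± 0.10 (adjusted p = 0.0110). LAC19 (LOC4351005), a laccase of the family that oxidises phenolics in cell walls, had 6.03 and 6.08 after KCl and 7.13 and 7.21 after nitrogen, a rise of 1.12 ± 0.11 (adjusted p = 0.0246). In all 3 the replicates of a group were within 0.14 of each other. The call was lost without any 1 of the shoot arrays in each of them, at adjusted p between 0.101 and 0.155 for MDAR5 and between 0.0580 and 0.107 for CML16, and between 0.0964 and 0.160 for LAC19. MDAR5 was also lost without any 1 of the root arrays, at 0.0541 or 0.0552, and LAC19 without either root KCl array, at 0.0750.

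The largest rises were in genes that the annotation gives by number only, and their functions are not described in the tables used here. LOC9270637 had signals of 8.87 and 9.20 after KCl and 13.28 and 13.23 after nitrogen. It rose by 4.22 ± 0.19 (adjusted p = 0.000657), or 18.7-fold. LOC4330867 had 4.71 and 4.80 after KCl and 8.40 and 7.76 after nitrogen, a rise of 3.32 ± 0.24 (adjusted p = 0.00487). Its KCl signal was below the 25th percentile of all probe sets, 4.91, where the array has little room to measure a lower level.

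LOC4352132 had signals of 7.98 and 8.54 after KCl and 11.28 and 11.01 after nitrogen, a rise of 2.89 ± 0.22 (adjusted p = 0.00718). LOC4326014 had 10.80 and 11.36 after KCl and 13.74 and 13.76 after nitrogen, a rise of 2.67 ± 0.18 (adjusted p = 0.00393). For both genes the KCl arrays differed by 0.56 and the rise was several times that gap. LOC4326671 had signals of 7.14 and 7.47 after KCl and 9.27 and 9.42 after nitrogen, a rise of 2.04 ± 0.13 (adjusted p = 0.00373). LOC4333430 had 5.69 and 5.80 after KCl and 7.39 and 7.54 after nitrogen, a rise of 1.72 ± 0.11 (adjusted p = 0.00373).

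LOC9270637, NSHB2, LOC4326671 and LOC4333430 were the 4 probe sets called in all 8 fits that left out 1 rice array. The call of LOC4330867 was lost without KCl replicate 1 (adjusted p = 0.0564), and those of LOC4352132 and LOC4326014 without nitrogen replicate 1 (adjusted p = 0.101 and 0.0858). Of the 25 calls, 9 held without KCl replicate 1, 9 without KCl replicate 2, 5 without nitrogen replicate 1 and 9 without nitrogen replicate 2. With the shoot arrays alone 3 held, and 12 did without either root KCl array and 16 without either root nitrogen array. Lower calls appeared in some fits: 21 probe sets with the replicate number as a block and 1 after quantile normalization. They also appeared without KCl replicate 2 and without nitrogen replicate 2, fits that leave 1 array in a group.

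The remaining called genes by number were LOC4333744 (1.97 ± 0.23), LOC4337318 (1.89 ± 0.17), LOC4337306 (1.46 ± 0.16), LOC4349185 (1.38 ± 0.13), LOC4337168 (1.19 ± 0.11), LOC4352131 (1.14 ± 0.13), LOC4332755 (1.07 ± 0.11), LOC4342988 (1.07 ± 0.11) and LOC4351549 (1.02 ± 0.10). LOC4333744, LOC4352131, LOC4332755, LOC4342988 and LOC4351549 were called in none of the fits that left out 1 array. The probe set with no gene, Os.27591.1.A1_at, had signals of 8.53 and 8.34 after KCl and 10.21 and 9.74 after nitrogen, a rise of 1.54 ± 0.16 (adjusted p = 0.0252). LOC4352131 and LOC4352132 are 2 gene positions apart on chromosome 12, and LOC4337306 and LOC4337318 are 17 apart on chromosome 4. The probe sets of LOC4352131 disagreed, at 1.25 ± 0.25 (adjusted p = 0.335), 0.19 ± 0.18 and -0.03 ± 0.13 beside the called one.

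**Figure D2:**
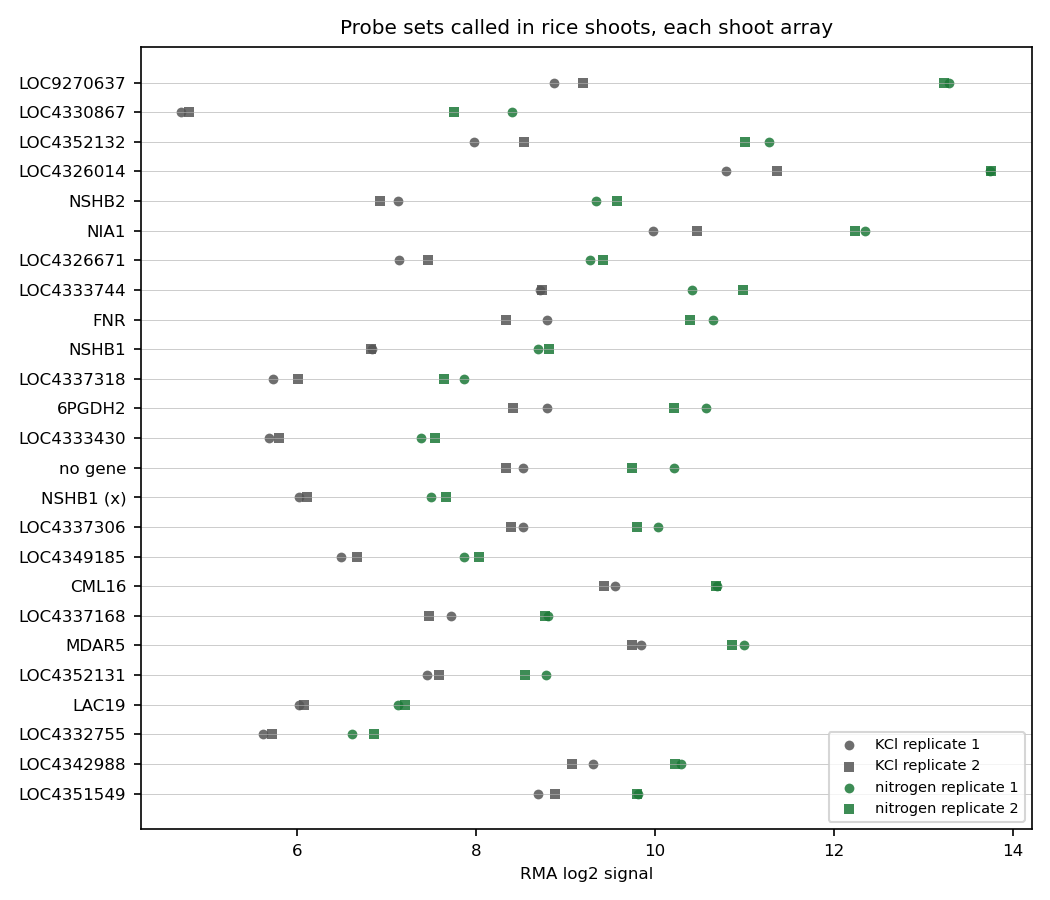
RMA log2 signal (horizontal axis) of the 25 called probe sets, 1 per row, in each of the 4 rice shoot arrays. Grey symbols are KCl arrays and green symbols nitrogen arrays, with circles for replicate 1 and squares for replicate 2, and the row marked (x) is the second called probe set of NSHB1. In every row both green symbols lie to the right of both grey ones, which the choice of the rows by the test favours. The rows run from LOC9270637, at 8.87 and 9.20 against 13.28 and 13.23, down to LOC4351549, which rose by 1.02.

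The shoot rises were set beside the root response in the same model. Of the 25 probe sets, 24 had a change above 0 in roots and 20 were also called higher there, where 104 probe sets (0.182%) were called higher. Root and shoot calls share 1 variance estimate per probe set, so they are not independent. NSHB2 was at 2.43 in shoots and 3.01 in roots, NIA1 at 2.07 and 1.75, FNR at 1.95 and 1.55, 6PGDH2 at 1.78 and 1.69, and LOC4326671 at 2.04 in both. The shoot change was the larger in 16 of the 25 and the smaller in 9. The 25 were chosen by their shoot change, which favours larger values in shoots, so this count does not compare the organs.

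The test of the difference between the shoot and root responses called no probe set with limma (3450 at an unadjusted p under 0.05, 6.03% of all). LOC4352131 came closest among the 25, at 1.14 in shoots and -0.08 in roots, a difference of 1.21 ± 0.18 (adjusted p = 0.294). LOC4333430 rose by 1.72 in shoots and 2.59 in roots, a difference of -0.88 ± 0.16 (adjusted p = 0.380). Os.27591.1.A1_at was at 1.54 in shoots and 0.26 in roots, a difference of 1.29 ± 0.23 (adjusted p = 0.380). LOC4349185 was at 1.38 in shoots and 0.49 in roots, a difference of 0.89 ± 0.19 (adjusted p = 0.467). These differences were not shown at this number of arrays, and a p over the threshold does not show equal responses.

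**Figure D3:**
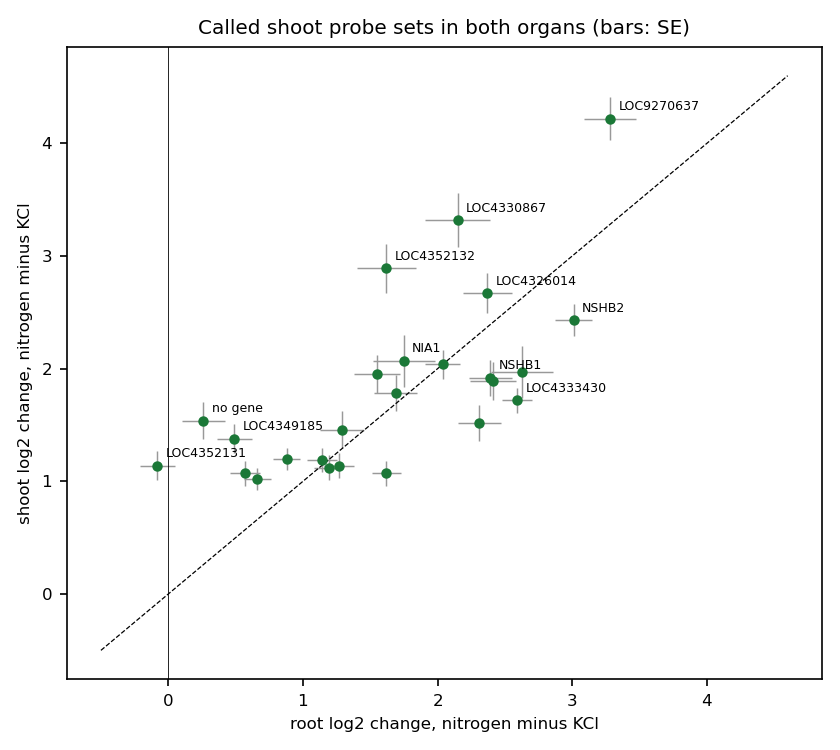
Log2 change after nitrogen in shoots (vertical axis) against that in roots (horizontal axis) for the 25 called shoot probe sets, with bars of 1 SE in each direction. The dashed line marks equal change, and the choice of the points by their shoot change favours the side above it. Most points lie near the line or above it, LOC4352131 is the point left of 0 in roots at -0.08, and no difference between the organs passed the test.

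Ammonium uptake and amino acid synthesis genes gave no call among 17 measured members. Their changes ran from -0.32 to 0.42, with a median of 0.07. Plastid glutamine synthetase GLN2 had signals of 13.44 and 13.47 after KCl and 13.64 and 13.70 after nitrogen, a change of 0.22 ± 0.17. The ferredoxin-dependent glutamate synthase Fd-GOGAT was at 0.28 ± 0.19, and the cytosolic glutamine synthetases GLN1-1 and GLN1-2 at -0.22 ± 0.11 and 0.20 ± 0.11. Ammonium transporter genes AMT3-1 and AMT3-2 were at -0.28 ± 0.09 and 0.42 ± 0.17, and both missed the threshold (adjusted p = 0.684 and 0.780). Organic acid genes, which supply carbon skeletons, were between -0.09 and 0.32 in 4 measured members. The pyruvate phosphate dikinase gene PPDK2 was at 0.32 ± 0.21, the malic enzymes ME6 and NADP-ME2 at 0.06 and -0.06, and PPDKB at -0.09.

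Regulators of the nitrate response were not called in any of the 10 genes found by name, and regulators without a name were not looked at. NIGT1, a repressor of nitrate-responsive genes, had signals of 6.22 and 6.25 after KCl and 6.88 and 6.64 after nitrogen, at 0.53 ± 0.11 (adjusted p = 0.346). NLP3, of the family of nitrate-sensing transcription factors, was at 0.29 ± 0.09 (adjusted p = 0.660), while NLP1 was at 0.09 and NLP2 at 0.05. The protein kinase genes CIPK8 and CIPK23 were at 0.16 and 0.00. TGA-type transcription factor genes ran from -0.35 to 0.33 in 10 members with 0 called, and TGAL1 was at 0.22, TGAL6 at -0.35, TGA2.3 at 0.18 and TGAL5 at 0.33. In these lists, as in all others, a share of genes with an unadjusted p under 0.05 has to be read against 5.48% higher and 4.53% lower over all genes.

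Cytokinin genes had 31 measured members and 0 called, with 2 higher and 2 lower at an unadjusted p under 0.05 and a median of 0.00. The response regulator RR1 was at -0.34 ± 0.10 in shoots and the phosphotransfer gene AHP1 at -0.40 ± 0.11, while LOGL9 and LOGL5, of the family that activates cytokinins, were at 0.54 ± 0.16 and 0.37 ± 0.12. Sulfur genes gave 0 calls in 6 members and a median of 0.16: the serine acetyltransferase SAT5 was at 0.34, SAT4 at 0.26, SAT2 at 0.10 and SAT1 at -0.09, and the cysteine synthases rcs1 and rcs3 at 0.22 and 0.10. Phosphate starvation genes had 0 called of 19, with PHO1;2 at -0.54, PHO1;3 at 0.46, SPX1 at -0.42 and Pht1;8 at 0.51. Iron acquisition genes had 0 called of 30, with NAAT1, an enzyme of phytosiderophore synthesis, at 0.50 ± 0.11 (adjusted p = 0.389), YSL14 at 0.53, NRAMP5 at -0.37 and YSL6 at -0.26.

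Glutaredoxins, small redox proteins that use glutathione, had no called member among 18. GRXC10 ranked next after HSP23.2 among uncalled genes with a name, at an unadjusted p under 0.01, with signals of 8.03 and 8.46 after KCl and 9.50 and 10.23 after nitrogen. It was at 1.62 ± 0.23 (adjusted p = 0.137). GRXC1 had 10.75 and 10.98 after KCl and 11.72 and 12.05 after nitrogen, at 1.02 ± 0.18 (adjusted p = 0.236), and GRXC15 had 9.12 and 9.08 against 9.87 and 10.26, at 0.97 ± 0.23 (adjusted p = 0.417). Both nitrogen arrays lay above both KCl arrays in all 3 (22.9% of all genes), which had the smallest p-values of the list. In all 3 nitrogen replicate 2 was the higher of its pair. Their root changes were 0.28, -0.31 and 0.04, and the difference between the organs was not called for GRXC10 (1.35 ± 0.33, unadjusted p = 0.00345). GRXC7 was at -0.47, and the median over the list was 0.10.

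Ascorbate and thioredoxin redox genes had 1 called of 32, MDAR5, and a median of 0.08. APX7, an ascorbate peroxidase, had signals of 8.77 and 7.52 after KCl and 9.58 and 9.33 after nitrogen, at 1.31 ± 0.33 (adjusted p = 0.474). The KCl arrays of APX7 differed by more than 1, and without KCl replicate 1 the change was 1.93 (adjusted p = 0.0290). APX1 was at -0.29 and Trx18 at 0.22. Calcium signalling genes had 1 called of 77, CML16, with 10 higher and 1 lower at an unadjusted p under 0.05. CML14 was at 0.50 ± 0.12, CML31 at 0.45 ± 0.12 and the kinase CIPK5 at 0.49 ± 0.14, at adjusted p between 0.453 and 0.589.

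Sugar and trehalose genes gave 0 calls in 40 members and a median of 0.02. The sugar exporter SWEET11 had signals of 8.36 and 7.20 after KCl and 6.51 and 6.56 after nitrogen, at -1.25 ± 0.31 (adjusted p = 0.461). The cell wall invertase gene CIN2 was at -0.82 ± 0.19 and the sucrose synthase SUS1 at -0.77 ± 0.24, while SPS3F, of sucrose synthesis, was at 0.39 ± 0.11. In SWEET11, CIN2 and SUS1 KCl replicate 1 was the highest of the 4 arrays. SWEET11 passed without KCl replicate 2 (-1.82, adjusted p = 0.0335). The clock genes gave 0 calls in 7 members, with PRR1 at 0.29, GI at 0.48, PRR37 at 0.20 and PCL1 at 0.23, and both nitrogen arrays were above both KCl arrays in 6 of 7 (22.9% of all genes).

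Cell wall and phenolic genes had 1 called of 78, LAC19. Their median was -0.11, and both nitrogen arrays lay below both KCl arrays in 23 genes and above in 8 (14.1% and 22.9% of all genes). The expansin EXPA6, of a family that loosens cell walls, had signals of 8.90 and 8.59 after KCl and 7.69 and 7.05 after nitrogen, at -1.38 ± 0.21 (adjusted p = 0.173). EXPA2 was at -0.85 ± 0.21 and the laccase gene LAC3 at -0.68 ± 0.18. Auxin genes had 0 called of 60 and a median of -0.07, with 2 higher and 10 lower at an unadjusted p under 0.05. ARF9 was at -0.51 ± 0.14, IAA14 at -0.53 ± 0.14 and ARF7 at -0.32 ± 0.10, and the auxin transporter PIN5a at 0.54 ± 0.14.

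Stress and hormone lists held no call. Abscisic acid and dehydration genes had 0 called of 82, with the dehydrin gene rab25 at 0.86 ± 0.19, and PP2C29, PP2C33 and PP2C61, phosphatases of a family that includes abscisic acid regulators, at 0.54, -0.60 and 0.57. Touch, wound and jasmonate genes had 0 called of 50, with the lipoxygenase LOX9 at 0.73 ± 0.14, OPR1 at 0.83 ± 0.17, OPR5 at -0.48 and WRKY62 at -0.60. WRKY62 was at 1.08 in roots, and the difference of -1.68 ± 0.20 was not called (adjusted p = 0.279). Ribosomal protein genes had 0 called of 24 and a median of -0.11, with RPS7 at -0.32, RPL7A-2 at -0.36, RPL27 at 0.23 and RPL7A-1 at -0.30. Photosynthesis genes had 0 called of 10 and changes from -0.12 to 0.02, with petC at -0.05, FBP1 at -0.11, PSAH at -0.08 and RBCS1, which had a low signal of 4.28 to 4.51 in the shoot arrays, at -0.09.

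Heat shock genes had 0 called of 45, and 1 array set the highest values. HSP23.2 had signals of 4.48 and 4.88 after KCl and 8.50 and 6.24 after nitrogen, at 2.69 ± 0.65 (adjusted p = 0.453). HSP16.9A had 8.37 and 8.35 against 9.56 and 8.59, and HSP16.9B 9.52 and 9.31 against 10.44 and 9.55. Of 20 small heat shock genes, nitrogen replicate 1 was above nitrogen replicate 2 in 15, by over 0.5 in 12. Their median change was 0.19, and it was 0.09 without nitrogen replicate 1. The shares of all genes with such differences between the nitrogen replicates are not given here. The heat shock factor HSF23 was at 0.48.

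**Figure D4:**
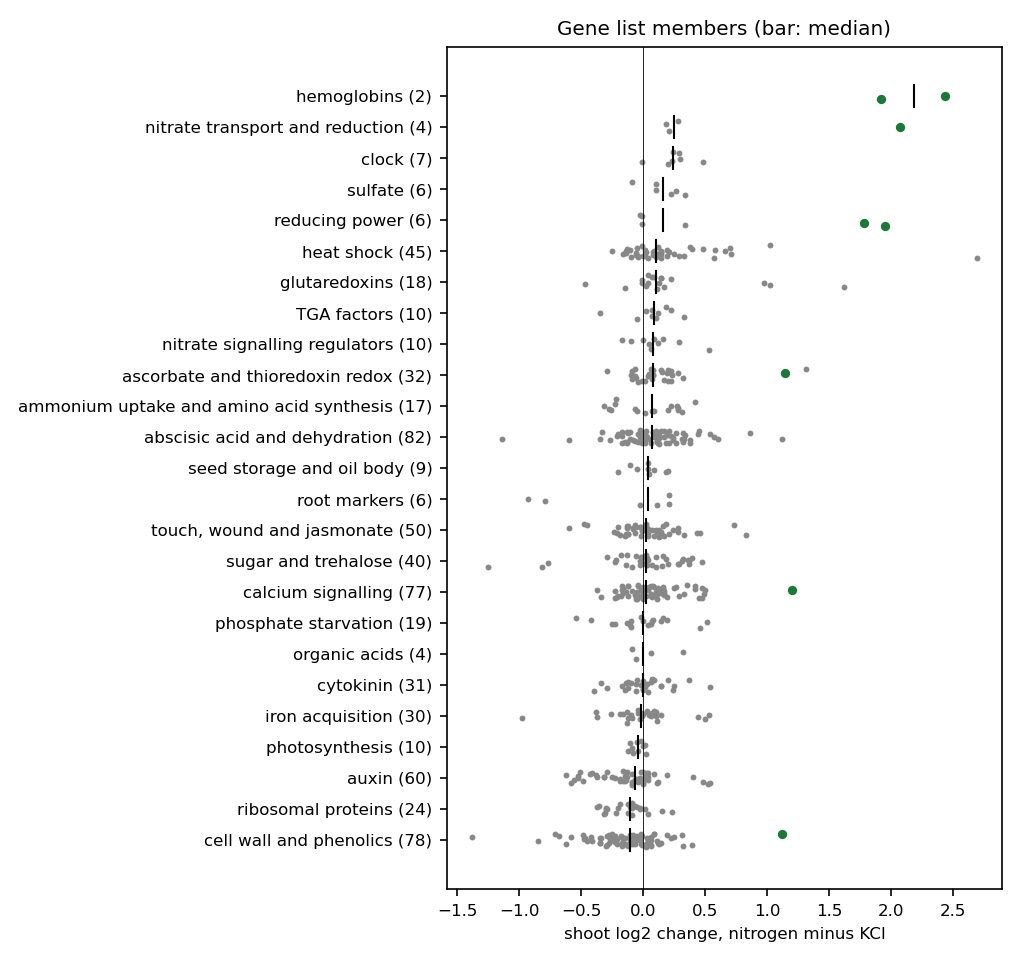
Log2 change in rice shoots after nitrogen (horizontal axis) for the measured members of 25 gene lists, 1 point per gene, with the number of genes in parentheses and a bar at each list's median. Large green points are called genes and grey points are not called. The called genes are NSHB1, NSHB2, NIA1, FNR, 6PGDH2, MDAR5, CML16 and LAC19, and most other members lie between -0.5 and 0.5.

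The large negative changes, none of them called, included genes of DNA replication. The list that holds these genes was chosen after the values were seen and carries no test. MCM2, a subunit of the replicative helicase, had signals of 8.63 and 7.73 after KCl and 7.22 and 6.48 after nitrogen, at -1.33 ± 0.30 (adjusted p = 0.406). MCM3 had 8.68 and 7.95 against 7.39 and 6.50, at -1.37 ± 0.32, and RPA70b, of the protein that coats single-stranded DNA, had 8.24 and 7.55 against 6.53 and 6.49, at -1.38 ± 0.20 (adjusted p = 0.129). MCM4, MCM5 and MCM7 were at -1.21, -1.26 and -1.20, and MCM6 at -0.72. In all 6 genes MCM2 to MCM7 the order was KCl replicate 1, KCl replicate 2, nitrogen replicate 1, nitrogen replicate 2 from high to low, so replicates differed in the same direction as the groups. The root changes of these 6 were between -0.67 and -0.33, with none called.

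Over the whole list of 39 replication and cyclin genes with OSH1, 0 were called, the median change was -0.38, and both nitrogen arrays lay below both KCl arrays in 21 and above in 2 (14.1% and 22.9% of all genes). KCl replicate 1 was above KCl replicate 2 in 32 of the 39 and nitrogen replicate 1 above nitrogen replicate 2 in 33. The shares of all genes with these orders are not given here, so the counts do not set this list apart. The B-type cyclin CYCB1-1 was at -0.98 ± 0.27. OSH1, a homeobox gene of the shoot meristem, had signals of 7.52 and 6.35 after KCl and 5.88 and 5.08 after nitrogen on 1 probe set (-1.45 ± 0.36) and 9.40 and 7.70 against 7.21 and 4.07 on the other (-2.91 ± 0.88). Both probe sets had the same order of arrays as the MCM genes. How much meristem or dividing tissue each sample held was not measured, its part in these values was not tested, and in whole shoots fewer cells of a type and less RNA per cell cannot be told apart. The root markers PRX74 and PRX112 followed this order too, at -0.93 ± 0.33 and -0.79 ± 0.25, while Lsi1, Lsi2 and CASP1 were at 0.11, 0.21 and -0.03.

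Most large negative changes shared this order of arrays. Of the 100 probe sets at -1 or less, the groups did not overlap in 91. Over all probe sets 15.7% had both nitrogen arrays below both KCl arrays, and choosing the 100 by their change favours this. In 79 the order was KCl replicate 1, KCl replicate 2, nitrogen replicate 1, nitrogen replicate 2. In 85 KCl replicate 1 exceeded KCl replicate 2 by over 0.5, and in 4 the reverse held. Among the 97 positive changes of 1 or more these counts were 34 and 3. The shares of this order and of such gaps over all probe sets are not given here. The median gap between KCl replicates was 0.84 for these 100 and 0.33 for the 97 positive changes of 1 or more. The metallothionein gene MT2C, with 13.25 and 12.54 after KCl and 12.04 and 10.93 after nitrogen, was another of them, at -1.41 ± 0.37 (adjusted p = 0.501). Without KCl replicate 2, RPA70b passed at -1.73 (adjusted p = 0.0213), and MCM2 to MCM7 passed in none of the 16 alternatives (lowest adjusted p = 0.0553).

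**Figure D5:**
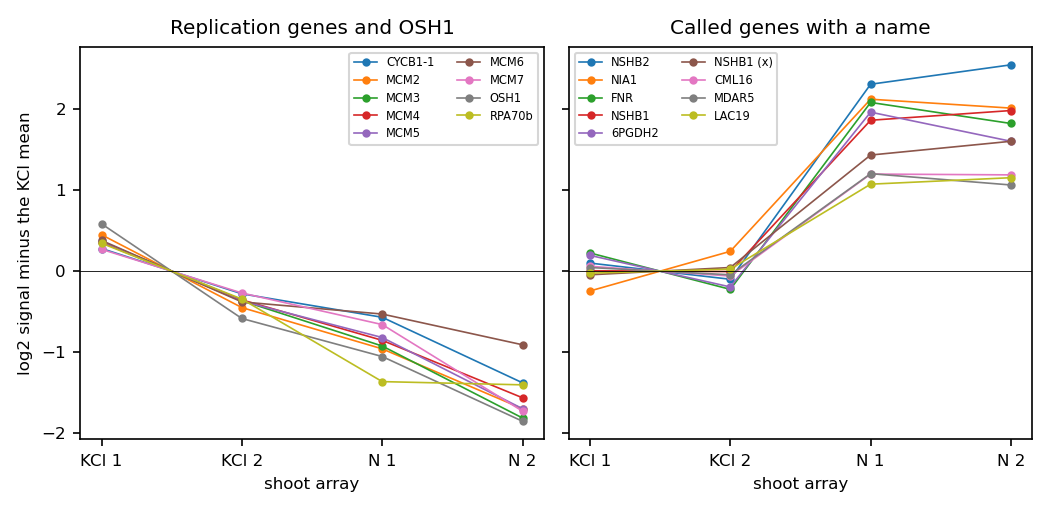
Log2 signal in each of the 4 shoot arrays (horizontal axis) minus the mean of the 2 KCl arrays (vertical axis), for replication genes, the cyclin CYCB1-1 and OSH1 on the left, none of them called, and for the called genes with a name on the right. The left-hand genes were chosen after their values were seen and the right-hand genes by the test, which favours replicates that lie close, so the panels show each set's values and are no comparison. MCM2, for example, goes from 8.63 and 7.73 to 7.22 and 6.48, and NSHB2 from 7.13 and 6.93 to 9.34 and 9.58.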

How the data were processed

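Rice RNA was hybridised to 1-colour Affymetrix arrays. The deposited values are log2 signals per probe set, made by the authors with RMA per the submitters' processing notes. The RMA version is not given in the sources used here, nor whether 1 run took in all arrays. RMA gives no detection call, and the number of arrays limits the precision. The log2 values were used as deposited.

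Of 57381 probe sets, 123 controls were left out. The platform annotation pairs 22436 of the 57258 tested with 1 gene, 95 with several and 34727 with none. Names for 2460 of 17905 genes came from a RefSeq table of another assembly, used for names and gene order only.

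Limma 3.58.1 in R 4.3.3 fitted 4 group means to the 8 rice arrays (4 residual degrees of freedom) with moderated variances, and was tested on simulated data. P-values are two-sided, adjusted by Benjamini-Hochberg over all probe sets tested, and called under 0.05. The difference between shoot and root responses is a contrast of the same fit. No batch labels were given.

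Named were every called probe set, the 10 highest and 10 lowest changes of named genes at an unadjusted p under 0.01 with groups apart, and in each list the 4 smallest p-values, or every member of lists of up to 6. A few other members and the added replication list were named after their values were seen. Lists use the brightest probe set per gene, with 30 homonyms left out. The members and lists were chosen with earlier results of these data known. The alternatives tried were other samples in the fit, no moderation, quantile normalization, median centring, dim probe sets left out, array weights, a variance trend, a replicate block and each array left out in turn.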

Additional observations from a re-analysis of the deposited data

How the results depend on the processing

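The 25 shoot calls were 25 with median centring, with a variance trend and with dim probe sets left out, 24 with array weights and 29 after quantile normalization, 28 higher and 1 lower. A fit of the shoot arrays alone left 3, and ordinary variances without moderation gave 1, which was none of the 25. Leaving out 1 array gave 5 to 22 calls, and the 25 changes lay between 0.93 at the lowest and 4.39 at the highest. Their sign could not turn in these fits, as both nitrogen arrays lay at least 0.91 above both KCl arrays in each. The sign is therefore no test of the calls, and leaving out a root array does not alter a shoot change. The test of the organ difference gave 0 calls in every alternative but 2: leaving out 1 array gave 0 to 1, with LOC4332162 called without root nitrogen replicate 1 (-3.54, adjusted p = 0.0233) and 1 probe set without root nitrogen replicate 2 (2.55, adjusted p = 0.0434). With the replicate number as a block there were 52 calls, 31 higher and 21 lower, the first 25 among them, and RPA70b and EXPA6 passed (adjusted p = 0.0355 and 0.0348). The pairing check gave correlations of 0.0279 to 0.35 between the deviations of same-numbered arrays of different groups, all of them positive. There are 2 replicates and no label for a shared batch, and whether same-numbered arrays share more than a number was not tested. The causes of these shifts were not tested, beyond the smaller number of arrays in the fits that leave some out. Signal over background could not be judged from RMA values, and 2 arrays per group limit every estimate.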
